A study of Mus musculus with 6 samples.

Results

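The control transcriptome described here was that of the whole oviduct on day 2 of pregnancy in Cdc42f/f mice, in which both copies of Cdc42 carry loxP sites but no Cre recombinase is present, so that the gene is intact. The 3 libraries were chosen by their label alone, out of 6 oviduct libraries in the series, and all 55276 gene symbols were read in them. The animals were adult females on a C57BL/6 background, taken as littermates of mice with PgrCre, a Cre driven by the progesterone receptor gene, whose libraries were not analysed here. The labels give the 3 libraries as biological replicates and do not state how many animals went into each. The values were RPKM, reads per kilobase of gene and per M (mega) reads of the library, a scale on which levels of different genes can be set side by side because gene length has been divided out. A symbol was counted as expressed when its mean reached 1 RPKM. Genes were named by their rank within lists of cell markers, functions and families, and those of lower rank were chosen after their values were seen.

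The oviduct, the mouse counterpart of the fallopian tube, receives the ovulated egg, hosts fertilization and carries the cleaving embryo to the uterus. Its lumen is lined by multiciliated cells, whose beating cilia move fluid and embryos, and by secretory cells, which make the fluid and its glycoproteins. Around this epithelium lie a fibroblast stroma with vessels and leukocytes, a coat of smooth muscle whose contractions also move the embryo, and an outer mesothelium. A whole-tissue library mixes all of these, and in such a library fewer cells of a type and less RNA per cell cannot be told apart.

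The recovered reads came to 42.7, 43.8 and 46.4 M (mega) in replicates 1, 2 and 3, from the steps between low RPKM values. They cover only genes with a match in the annotation, and shares of reads below are shares of them. A single read in a gene of 2 kb was worth 0.0115, 0.0108 and 0.0104 RPKM, which sets the lowest level that could be seen. Of all symbols, 33862 were above 0 in at least 1 library, 15102 had a mean of 1 RPKM or more, 5306 reached 10, 314 reached 100 and 18 reached 1000. Pairs of libraries correlated over 15100 of the expressed genes, without a pair of rows whose symbols had become the same number, at Pearson's r of 0.950, 0.956 and 0.966 on log2 values, which describes genes within the tissue and not independent replicates. Replicate 1 stood apart in 2 respects that touch the values below. It held far more reads of very short noncoding RNA genes, and higher levels of the chaperones of the endoplasmic reticulum.

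Among protein-coding genes of the nucleus, the highest means belonged to a secreted protein, the oviductal glycoprotein Ovgp1, and a translation factor. Smooth muscle actin, ribosomal and defence proteins followed. Ovgp1 (chromosome 3, 105973711 to 105987423 in GRCm38, plus strand) stood at 3849, 2755 and 2532 RPKM in replicates 1, 2 and 3. Its mean was 3046 ± 705 RPKM (SD, n = 3), and it took 1.39%, 1.04% and 0.938% of the recovered reads. It is the mucin-like glycoprotein that secretory cells release onto the zona pellucida of the egg, and it was the highest of all protein-coding nuclear genes in replicate 1, where it lay above the translation elongation factor Eef1a1. Eef1a1 was at 3140, 2775 and 3134 RPKM, above Ovgp1 in replicates 2 and 3, so that the higher mean of Ovgp1 rested on replicate 1. Igkc, the constant part of the immunoglobulin kappa light chain, had 1425, 2462 and 2144 RPKM. It is annotated as an immunoglobulin gene, apart from the protein-coding class. Acta2, smooth muscle actin, had 937, 972 and 1489 RPKM. Ltf, the iron-binding defence protein lactotransferrin, had 934, 879 and 1175 RPKM, and B2m, the light chain of class I antigen-presenting molecules, had 837, 1035 and 1235 RPKM. Other genes near 1000 RPKM were the antiviral membrane protein Ifitm3 (987, 1118 and 1187 RPKM), the calcium-binding S100a11 (982, 1171 and 845 RPKM), the protease inhibitor A2ml1 (865, 875 and 626 RPKM) and the detoxifying enzyme Gstm1 (804, 879 and 658 RPKM). Acta2 and Igkc had the widest ranges relative to their means among the genes named here, with coefficients of variation of 27.3% and 26.4%.

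A small share of the protein-coding nuclear genes held much of their summed RPKM. Of 18088 such genes above 0, the first 10 took 6.32 ± 0.188% of their summed RPKM, the first 100 took 21.5 ± 0.435% and the first 1000 took 51.7 ± 0.593% (SD, n = 3), and the 83 ribosomal protein genes took 9.40 ± 0.319%. Mitochondrial transcripts made up 5.59%, 5.62% and 6.23% of the reads, led by mt-Co1, a subunit of cytochrome oxidase, with 11600, 11596 and 12354 RPKM. The other subunits mt-Co2 (66.0, 66.1 and 62.3 RPKM) and mt-Co3 (46.9, 45.1 and 43.4 RPKM) were listed far lower. Mitochondrial genes have near-identical nuclear copies, so these low values are uncertain, and the mitochondrial share of the reads may be too low.

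The highest value of the table belonged to Gm23935, a noncoding symbol of 57 bases, at 135591, 43125 and 28440 RPKM in replicates 1, 2 and 3. It took 29.9%, 12.5% and 8.39% of the summed RPKM but only 0.786%, 0.260% and 0.169% of the reads, because RPKM divides by its short length. Gm24270, at 9611, 3663 and 2296 RPKM, Lars2, at 227, 64.2 and 43.3 RPKM, and the microRNA locus Mir6236, at 27.7, 7.02 and 3.03 RPKM, had the same order of libraries. The ribosomal RNA symbol CT010467.1 took 3.54%, 3.30% and 2.14% of the reads. Gm23935, CT010467.1 and Gm24270 were, with 7 mitochondrial genes, the first 10 symbols of the table, whose share of the summed RPKM was 44.5%, 29.0% and 25.3% in replicates 1, 2 and 3 (33.0 ± 10.2%, or 27.2% without replicate 1). None of these 10 is among the protein-coding nuclear genes described above.

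**Figure D1:**
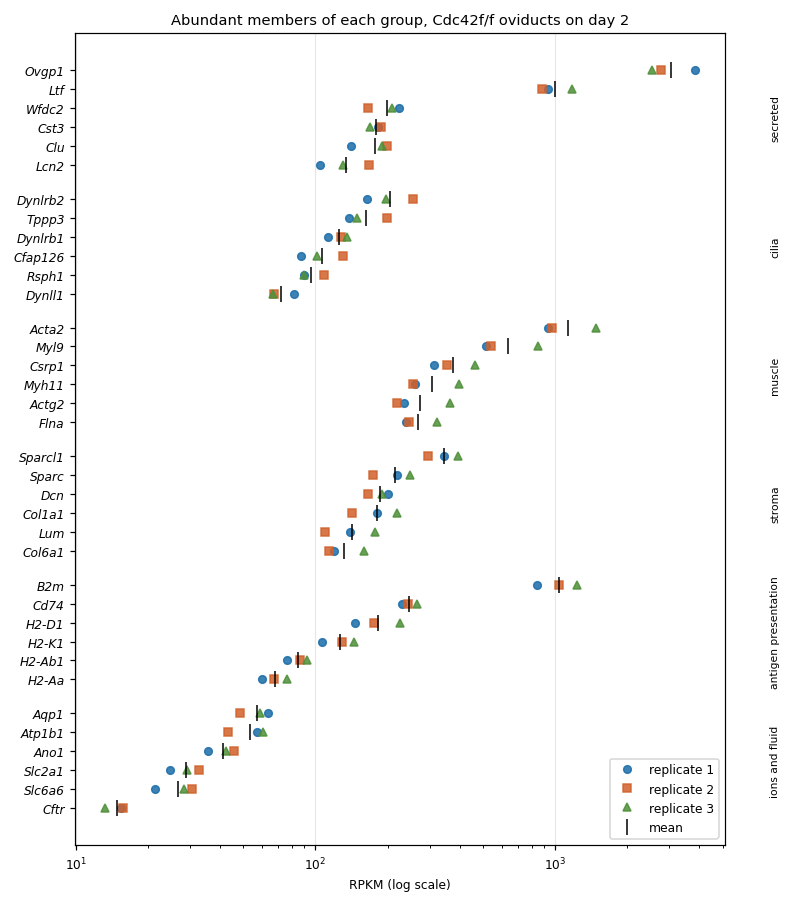
RPKM of 6 abundant genes of each functional group in the 3 Cdc42f/f oviduct libraries on day 2, on a log axis, with a point for each library and a line for the mean. Ovgp1, at 2532 to 3849 RPKM, stood above every other gene drawn, while the points of a gene mostly lay close together against the distance between genes.

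The listed mucosal secreted proteins showed a steep order below Ovgp1. Of 32 listed mucosal proteins, 21 were expressed and 7 reached 100 RPKM. Within this list Wfdc2, a whey acidic protein of reproductive tract epithelium, came behind Ovgp1 and Ltf with 223, 166 and 209 RPKM. Secreted genes outside it had higher means than Wfdc2, such as A2ml1 (788 RPKM), C3 (465 RPKM) and Serpina1e (465 RPKM). Cst3, the cysteine protease inhibitor cystatin C, had 183, 187 and 169 RPKM, and Clu, the extracellular chaperone clusterin, had 141, 200 and 190 RPKM. The siderophore-binding Lcn2 was at 104, 167 and 130 RPKM, lowest in replicate 1. Muc1, a membrane mucin of the apical surface, reached 60.01, 90.4 and 60.5 RPKM, and Pigr, the receptor that carries immunoglobulin A into the lumen, 11.1, 13.9 and 9.27 RPKM. Agr2, a disulfide isomerase needed for mucin folding, had 127 RPKM in replicate 1 against 53.3 and 47.4 RPKM in replicates 2 and 3. The seminal and glandular proteins Msmb and Crisp3 were listed at 0 in all 3 libraries.

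The promoter of Ovgp1 is shown because this gene had the highest mean of the protein-coding nuclear genes and is known as an estrogen-responsive gene of the oviduct. It is given from RefSeq (GRCm38.p6, chr3:105973552-105973801, plus strand), as the 250 bases before the annotated start, which lies inside the gene model used for the RPKM values. Capitals mark the letters AGGTCA, the core letters recognised by estrogen receptors and other nuclear receptors.
Ovgp1: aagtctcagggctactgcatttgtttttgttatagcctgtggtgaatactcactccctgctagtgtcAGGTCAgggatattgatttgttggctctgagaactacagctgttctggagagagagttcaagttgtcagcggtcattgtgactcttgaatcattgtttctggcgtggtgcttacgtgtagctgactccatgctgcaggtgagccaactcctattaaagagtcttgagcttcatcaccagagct
These letters were found once, starting 183 bases before the start. Searched on both strands, it was in 18.1% of all genes with RefSeq promoter windows, each from 250 bases before to 50 after a start, and in 15.01% of those expressed, so a match is common and describes the letters only. The longer palindrome GGTCANNNTGACC was in 0.0740% of all these genes, and not in Ovgp1.

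Protease inhibitors formed the second large secreted group, with 24 of 32 listed genes expressed. A2ml1, the more abundant inhibitor named above, was not in this list. Serpina1e, an alpha-1 antitrypsin with close paralogs whose reads may be shared, stood at 429, 414 and 551 RPKM. Wfdc18, another whey acidic protein, had 225, 182 and 240 RPKM. Timp2, which inhibits matrix metalloproteinases, was at 122, 143 and 161 RPKM, and the complement inhibitor Serping1 at 131, 126 and 145 RPKM. Spint2, an inhibitor of epithelial serine proteases, had 102, 107 and 96.6 RPKM. The pancreatic and epidermal inhibitors Spink1 and Spink5 and the testis-type cystatin Cst9 were listed at 0 in every library.

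Complement was also abundant, with 20 of 24 listed complement and clotting genes expressed. C3, the central component of the cascade, reached 446, 461 and 489 RPKM, a narrow range (465 ± 21.7, SD, n = 3). Plat, tissue plasminogen activator, had 108, 128 and 134 RPKM. The classical pathway protease C1s1 was at 56.1, 49.9 and 62.2 RPKM, and the regulator Cfi at 53.3, 37.9 and 42.3 RPKM.

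Of 61 growth factors, cytokines and their binding proteins, 44 were expressed, and the 4 at 100 RPKM or more were all binding proteins of insulin-like growth factors. Igfbp7 had 238, 265 and 305 RPKM and Igfbp5 had 209, 227 and 241 RPKM, while Igfbp4 (109, 128 and 154 RPKM) and Igfbp6 (122, 126 and 126 RPKM) followed. The ligand Igf1 itself was at 28.5, 22.2 and 29.5 RPKM. Fgf1, a fibroblast growth factor, was the next highest but differed between libraries, with 30.4 RPKM in replicate 1 against 66.7 and 78.2 RPKM in replicates 2 and 3. Mdk, a heparin-binding growth factor, had 48.1, 53.4 and 69.6 RPKM. The angiogenic ligands Vegfb (29.0, 33.4 and 34.3 RPKM) and Vegfa (33.1, 28.0 and 30.1 RPKM) overlapped in their ranges, as did the stanniocalcins Stc1 and Stc2, secreted calcium and phosphate regulators.

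Genes of the motile cilium were expressed almost without exception. All 16 listed markers of multiciliated cells passed 1 RPKM, 15 passed 10 and 6 passed 100. The highest was Fam183b, a gene of ciliated cells, with 177, 246 and 222 RPKM (chromosome 11, 58792797 to 58801960, minus strand). Dynlrb2, a dynein light chain of the roadblock type, had 164, 256 and 196 RPKM. Capsl stood at 185, 195 and 162 RPKM and the microtubule protein Tppp3 at 138, 199 and 149 RPKM. Foxj1, the transcription factor that switches on the motile cilium program, had 83.9, 120 and 99.7 RPKM. For all of these, replicate 2 was the highest library.

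The components of the axoneme, the microtubule core of the cilium, differed in level. Tektins and other proteins inside the microtubule doublets were led by Tppp3 and by Cfap126 at 86.9, 131 and 102 RPKM, and included Tekt1 at 41.4, 52.8 and 47.9 RPKM, with all 23 measured members expressed. Radial spoke and central pair proteins, which relay the signal that shapes the beat, were expressed in 26 of 27 cases, led by Rsph1 (89.6, 109 and 89.5 RPKM) and Nme5 (56.2, 80.0 and 60.7 RPKM). The dynein heavy chains, the motors of the beat, were lower per length: 12 of 15 were expressed, and the highest, Dnah5 of the outer arm, had 27.1, 38.7 and 25.4 RPKM. Dnah6 of the inner arm, with 30.3, 27.8 and 27.3 RPKM, overlapped with it. Dnah9, another outer-arm heavy chain, was at 11.9, 20.04 and 11.9 RPKM. The smaller dynein chain Dnali1 had 62.8, 85.8 and 65.5 RPKM and the intermediate chain Dnaic1 18.5, 37.8 and 19.1 RPKM. Factors that assemble and dock dynein arms reached 10 RPKM in 8 of 15 cases, led by Zmynd10 at 20.4, 31.5 and 24.3 RPKM. Intraflagellar transport and basal body genes, which primary cilia also use, were expressed in 30 of 30 cases, led by Ift20 at 40.8, 32.4 and 32.7 RPKM, which was not highest in replicate 2.

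The regulators of multiciliated cell formation, apart from Foxj1, had means of at most 20.2 RPKM, and the median of the list, 5.92 RPKM, was near that of the dynein heavy chains, 6.89 RPKM. All 12 had a mean of at least 1 RPKM and 5 reached 10. Rfx2, which acts with Foxj1 on ciliary promoters, was at 10.8, 11.7 and 11.1 RPKM, and the cell cycle factors E2f4 and E2f5, used again in centriole amplification, at 14.5, 14.2 and 15.9 RPKM and 18.9, 19.7 and 21.96 RPKM. Trp73, the p53 relative that acts upstream of Foxj1, had 5.53, 6.90 and 5.75 RPKM, and Myb, another early regulator, had 5.40, 6.30 and 5.62 RPKM. The earliest regulators were near the expression limit. Mcidas, which starts centriole amplification, was at 2.05, 1.28 and 0.863 RPKM and Gmnc, upstream of it, at 0.946, 0.907 and 1.21 RPKM. Ccno, needed for the same step, was at 2.02, 2.10 and 2.34 RPKM.

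Promoters of 3 ciliary genes are shown as examples that hold a feature on which the lists of genes had not been chosen. Tekt1 has 2 windows, and the first that held the feature before the start is shown. Capitals mark the letters GTTGCC or their reverse complement, an arm of the X-box that RFX factors recognise. This arm was searched after the longer form GTTNCCNNGGNAAC had been counted, which it overlaps. Fam183b is at chr11:58801961-58802210 on the minus strand, Dynlrb2 at chr8:116504765-116505014 on the plus strand and Tekt1 at chr11:72361883-72362132 on the minus strand (RefSeq, GRCm38.p6).
Fam183b: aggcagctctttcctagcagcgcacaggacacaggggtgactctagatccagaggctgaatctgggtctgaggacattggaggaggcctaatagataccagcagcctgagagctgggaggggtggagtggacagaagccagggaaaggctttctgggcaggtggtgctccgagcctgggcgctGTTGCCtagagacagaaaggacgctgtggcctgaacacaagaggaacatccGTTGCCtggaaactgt
Dynlrb2: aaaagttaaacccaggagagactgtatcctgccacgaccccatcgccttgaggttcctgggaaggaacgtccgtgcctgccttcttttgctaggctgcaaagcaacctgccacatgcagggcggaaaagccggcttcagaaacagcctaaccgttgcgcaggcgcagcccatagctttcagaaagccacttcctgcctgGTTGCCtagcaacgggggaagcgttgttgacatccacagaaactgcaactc
Tekt1: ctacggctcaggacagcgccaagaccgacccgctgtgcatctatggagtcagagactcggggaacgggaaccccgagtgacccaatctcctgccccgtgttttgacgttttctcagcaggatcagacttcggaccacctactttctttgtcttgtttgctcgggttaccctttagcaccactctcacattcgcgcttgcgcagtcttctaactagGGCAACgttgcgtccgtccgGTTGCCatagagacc
Fam183b had 2 matches, the nearest 16 bases before the start, Dynlrb2 had 1 at 51 bases, and Tekt1 had 2, the nearest at 15 bases and the other on the opposite strand. Of 117 ciliary genes with a window of the same kind, 57 (48.7%) held GTTGCC on either strand, against 15.5% of expressed genes, 14.1% of all genes, 5 of 34 stromal genes (14.7%) and 0 of 24 muscle genes. The longer form was in 2 of the 117 (1.71%) and in 0.529% of all genes with windows. These are counts of letters, with no test and no statement about binding.

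The smooth muscle coat gave the other group of very abundant genes. All 16 markers of smooth muscle were expressed and 6 of them reached 100 RPKM. Besides Acta2, these included Myl9, the regulatory light chain of smooth muscle myosin, at 517, 542 and 847 RPKM. Myh11, the smooth muscle myosin heavy chain, was at 262, 256 and 398 RPKM, and the enteric-type actin Actg2 at 234, 220 and 364 RPKM. Csrp1, a cytoskeletal LIM protein, had 313, 354 and 462 RPKM, and the actin crosslinker Flna 239, 245 and 321 RPKM. Of the thin filament proteins, Tpm2 (187, 155 and 259 RPKM), Cnn1 (85.8, 75.2 and 128 RPKM) and the intermediate filament protein Des (116, 106 and 152 RPKM) repeated this pattern, with the highest value in replicate 3 and replicates 1 and 2 closer to each other. Tagln, usually among the highest genes of smooth muscle, was listed at only 1.79, 1.51 and 2.41 RPKM. Of its exon bases 67.9% overlap a gene on the opposite strand, and its level cannot be taken from this table.

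Channels and receptors of muscle were far lower than its filaments, with 25 of 35 expressed and 5 at 10 RPKM or more. The calcium pump Atp2a2 had 104, 89.9 and 104 RPKM. Ano1, the calcium-activated chloride channel found both in pacemaker cells and in epithelium, was at 35.6, 45.7 and 42.4 RPKM, while Kit, the receptor of interstitial cells of Cajal and of mast cells, was at 8.25, 7.89 and 4.84 RPKM. Kcnmb1, a subunit of the smooth muscle potassium channel, stood at 23.5, 28.2 and 25.7 RPKM. The L-type calcium channel Cacna1c, which starts contraction, had 3.56, 3.71 and 4.37 RPKM. Unlike the filament genes, Atp2a2, Ano1 and Kcnmb1 were not separated in replicate 3. Among receptors, Ednra for endothelin was at 7.75, 8.30 and 9.98 RPKM, Npr1 for atrial natriuretic peptide at 40.1, 43.3 and 33.8 RPKM, and Ptgfr for prostaglandin F at 2.38, 1.94 and 3.04 RPKM.

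Promoters of 2 muscle genes are shown as examples that hold a second motif, the CArG box bound by serum response factor, marked in capitals. Myl9 is at chr2:156775214-156775463 and Cnn2, a calponin, at chr10:79988350-79988599, both on the plus strand (RefSeq, GRCm38.p6).
Myl9: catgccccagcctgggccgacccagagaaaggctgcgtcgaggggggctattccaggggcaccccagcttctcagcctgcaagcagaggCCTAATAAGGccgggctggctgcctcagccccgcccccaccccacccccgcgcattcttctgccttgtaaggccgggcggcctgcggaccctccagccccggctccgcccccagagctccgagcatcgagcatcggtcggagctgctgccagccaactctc
Cnn2: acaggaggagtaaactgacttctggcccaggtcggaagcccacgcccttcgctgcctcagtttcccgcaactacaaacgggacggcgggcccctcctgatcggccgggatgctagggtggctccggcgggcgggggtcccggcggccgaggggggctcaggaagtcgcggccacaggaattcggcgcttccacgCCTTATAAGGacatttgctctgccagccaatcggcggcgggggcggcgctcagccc
The box began 161 bases before the start of Myl9 and 56 bases before that of Cnn2, whose RNA was at 58.4, 62.0 and 87.0 RPKM. It was found in 7 of 24 muscle genes with a window (29.2%), against 0 of 117 ciliary genes, 1.57% of expressed genes and 1.81% of all genes. Again the count describes letters in these windows and was not tested.

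The matrix genes of the stroma were led by matricellular proteins, ahead of the collagens. Sparcl1, an extracellular glycoprotein, had 343, 295 and 393 RPKM, and Sparc, a collagen-binding protein of the same family, had 220, 174 and 249 RPKM. The collagen chain Col1a1 was at 181, 142 and 218 RPKM and Col3a1 at 127, 99.3 and 144 RPKM. Dcn, a small proteoglycan that binds collagen fibrils, had 201, 165 and 189 RPKM and the related Lum 139, 110 and 177 RPKM. All 15 fibroblast markers and all 40 matrix genes were expressed, 29 of these matrix genes at 10 RPKM or more. Replicate 2 was the lowest library for each of the genes just named. Basement membrane chains were lower, with Col4a1 at 33.9, 30.7 and 42.9 RPKM and Lamb2 at 53.1, 53.4 and 55.6 RPKM.

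Genes of epithelial structure were abundant, and their summed level varied little. The 15 epithelial markers were all expressed, with a summed level of 1739 ± 30.7 RPKM (SD, n = 3). Single members varied no less than other genes, with a median SD of 0.14 on the log2 scale against 0.12 for genes of 10 to 100 RPKM. Krt18, the acidic keratin of simple epithelia, had 450, 548 and 429 RPKM and its partner Krt8 had 211, 214 and 215 RPKM. Cldn3, a tight junction protein, was at 160, 129 and 155 RPKM. Of 10 markers of secretory cells 7 were expressed, among them the transcription factors Pax8 (23.01, 32.3 and 27.8 RPKM), Sox17 (39.9, 32.9 and 45.2 RPKM) and Emx2 (35.7, 37.5 and 39.2 RPKM), all known from the female reproductive tract. Gldc, Slc26a3 and Lhx1 stayed below 0.1 RPKM in each library. The epithelial markers and Ovgp1 thus matched the labelled tissue, while these last 3 listed genes were near the limit of detection.

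The factors that pattern the female duct along its length were expressed unevenly. Hoxa9, the HOX gene known for the oviduct, was at 8.35, 6.10 and 13.7 RPKM. Hoxa10, typical of the uterus, was at 4.51, 1.76 and 6.80 RPKM. Hoxa11, also of the uterus, was at 0.473, 0.0189 and 0.435 RPKM, and Hoxa13, of cervix and vagina, was listed at 0. The uterine gland factor Foxa2, at 15.3, 16.7 and 12.7 RPKM, and Ltf were expressed, whereas Lif, the uterine cytokine of implantation, was at 0.339, 0.467 and 0.348 RPKM. The secreted serine protease Prss29 and the chemokine Cxcl15, both known from uterine glands, were highest in replicate 1 with 16.1 and 17.8 RPKM, against 7.06 and 6.57 RPKM in replicate 2 and 5.05 and 3.23 RPKM in replicate 3. The Wnt ligands Wnt5a, of mesenchyme, and Wnt7a, of epithelium, had 15.8, 12.1 and 14.1 RPKM and 9.05, 10.6 and 15.1 RPKM.

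Ovarian hormones act on all layers of the oviduct, and the receptors Esr1 and Pgr were expressed with little spread. Esr1, estrogen receptor alpha, had 41.8, 39.5 and 42.8 RPKM. Pgr, the progesterone receptor, had 14.1, 12.4 and 13.9 RPKM, below Esr1 in every library. Esr2, estrogen receptor beta, was at 0.0547, 0.0256 and 0.0861 RPKM. The membrane progesterone-binding protein Pgrmc1 stood above the nuclear receptors with 75.9, 77.7 and 82.3 RPKM. Greb1, an estrogen response gene, was at 14.4, 10.1 and 9.34 RPKM, and Ihh, the hedgehog ligand induced by progesterone in uterine epithelium, at 11.01, 3.35 and 7.52 RPKM, one of the wider ranges of this list. The gonadotropin receptors were at or near 0, with Lhcgr at most 0.0840 RPKM and Fshr listed at 0.

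Tubal fluid is made by ion and water transport across the epithelium. Of 33 transport genes, 23 were expressed and 12 reached 10 RPKM. Aqp1, a water channel of endothelium and epithelium, had 63.6, 48.4 and 58.5 RPKM. Cftr, the apical chloride channel, was at 15.5, 15.8 and 13.2 RPKM, and Slc12a2, which loads chloride into the cell, at 10.7, 14.4 and 13.3 RPKM. Slc6a6, the carrier of taurine, an amino acid known in tubal fluid, had 21.3, 30.6 and 28.2 RPKM.

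Immune genes ran from very abundant to scarce by cell type. All 16 genes of antigen presentation were expressed, led by B2m, by the invariant chain Cd74 (231, 245 and 265 RPKM) and by the class I heavy chains H2-D1 (146, 176 and 226 RPKM) and H2-K1 (107, 130 and 144 RPKM). For each of these 4 genes replicate 3 was the highest and replicate 1 the lowest. The class II chain H2-Eb1 differed from them with 67.8, 78.1 and 43.8 RPKM. Macrophage markers were expressed in 14 of 15 cases, including Lyz2, a lysozyme, at 122, 94.6 and 105 RPKM and C1qb at 64.2, 70.1 and 67.5 RPKM. Immunoglobulin A, the antibody of mucosal secretions, was seen as Igha at 193, 408 and 308 RPKM and its joining chain Jchain at 68.8, 92.5 and 84.3 RPKM. Markers of T and natural killer cells (5 of 12 expressed) and of neutrophils (6 of 10) all had means below 10 RPKM. Hdc, the enzyme that makes histamine, had 121, 108 and 141 RPKM, whereas the mast cell proteases Mcpt4 (4.20, 2.09 and 4.21 RPKM) and Cpa3 (2.58, 1.44 and 2.55 RPKM) were far lower.

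Of 22 listed genes induced by interferon, a list without the Ifitm family, 21 were expressed, led by Ifi27 (106, 86.0 and 105 RPKM) and Bst2 (76.0, 68.7 and 86.6 RPKM), an antiviral tether. The chemokines were led by Ccl21a, a lymphatic signal for dendritic and T cells with near-identical copies, at 112, 67.4 and 92.8 RPKM, while the lymphatic factor Prox1 was at 0.872, 0.739 and 0.776 RPKM. Cell cycle genes were low. Mki67, a marker of dividing cells, was at 2.04, 1.84 and 1.94 RPKM, and only Pcna, also used in DNA repair, exceeded 10 RPKM (14.7, 13.7 and 13.4 RPKM).

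Markers of neighbouring tissues were counted because fragments of ovary, fat or embryos can stay with a dissected oviduct. Of 13 oocyte and early embryo genes 0 were expressed, and of 10 pancreas and gut genes 0 were. The sperm list gave 1 of 9, Gapdhs, a glycolytic enzyme of the sperm tail, at 1.67, 2.03 and 1.93 RPKM, while Tnp1, Prm2 and Smcp were listed at 0. Granulosa and luteal cell markers were low, with 5 of 12 expressed and summed levels of 14.9, 16.9 and 26.9 RPKM, highest in replicate 3. Foxl2, an ovarian transcription factor, was at 4.13, 5.80 and 7.77 RPKM, and Inha, the inhibin alpha chain, at 3.76, 4.90 and 8.40 RPKM. The steroid enzyme Hsd3b1 was listed at 0 in replicates 1 and 2 and had 3.03 RPKM in replicate 3, and Cyp11a1, which makes pregnenolone, had 0.0671, 0.0584 and 0.863 RPKM, while Cyp19a1 was listed at 0 throughout. Star, which carries cholesterol to that enzyme, ran the other way with 4.08, 3.63 and 3.27 RPKM. Red blood cell genes, 4 of 7 expressed, summed to 101, 30.9 and 37.2 RPKM and were highest in replicate 1, where Hbb-bs, a hemoglobin chain, had 61.3 RPKM against 16.8 and 21.4 RPKM in replicates 2 and 3. Mesothelial markers, which belong to the outer lining, were expressed in 7 of 8 cases, such as Upk3b at 32.2, 26.3 and 22.3 RPKM. Of 8 adipocyte genes 3 were expressed, Lpl (6.90, 6.84 and 7.71 RPKM), Pparg and Adipoq (0.633, 1.47 and 1.29 RPKM), with Lep listed at 0. Of 10 skeletal muscle genes 4 were, led by Acta1 at 5.24, 6.78 and 11.02 RPKM, with Myh1 listed at 0. The part these cells play in the other values was not tested.

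Within gene families, 1 member usually led. In 65 families the highest member by mean was also the highest in all 3 libraries in 56, and in 49 its lowest library lay above the highest library of the next member. It held more than 50% of the family's summed RPKM in 30 families and more than 90% in 5. The log2 ratio of the leading to the next member, on RPKM plus 0.1, was at least 2 in 16 families, between 1 and 2 in 18 and under 1 in 31. These ratios compare levels per length within a library, with no test.

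**Figure D2:**
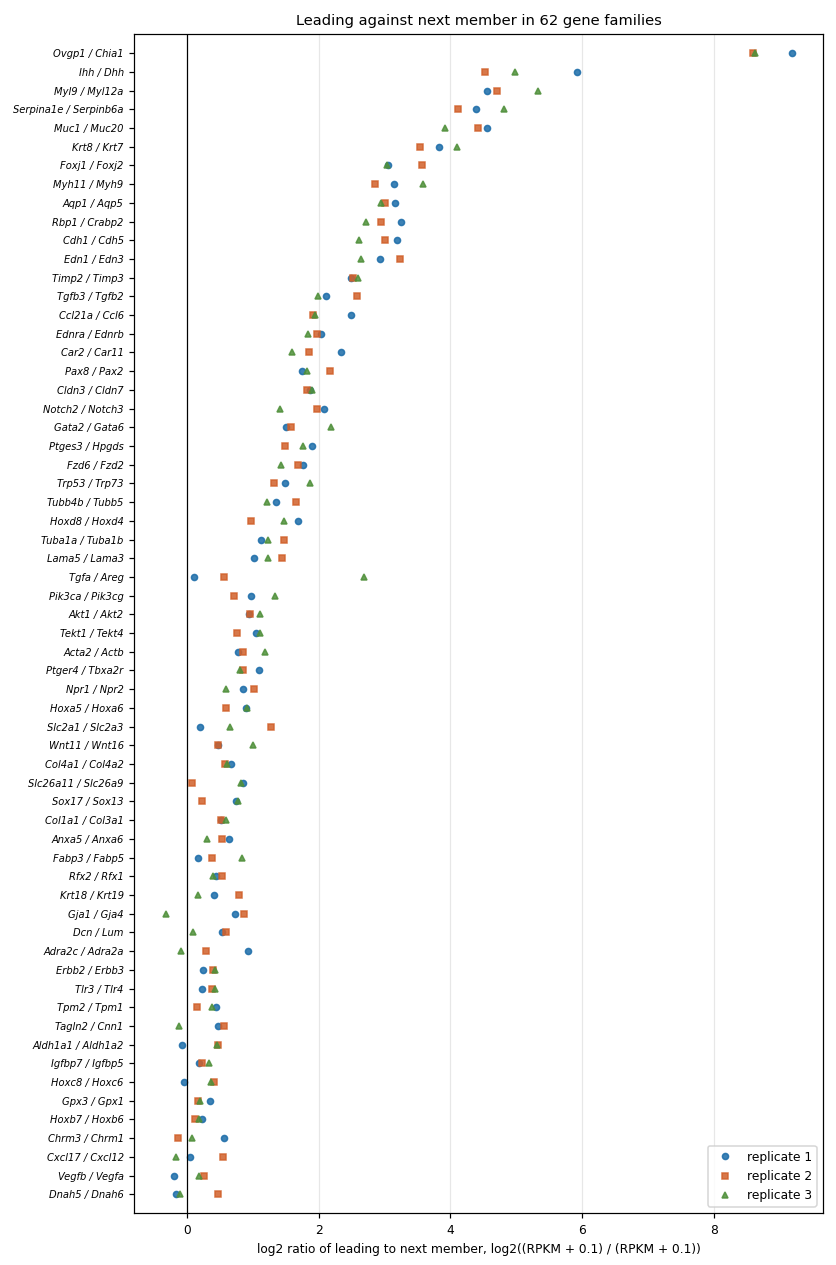
Log2 ratio of the leading to the next member of 62 of the 65 gene families, on RPKM plus 0.1, with a point for each of the 3 Cdc42f/f libraries. Ovgp1 over Chia1 had the widest ratio, 8.80 ± 0.33, while some families near 0, such as Dnah5 over Dnah6 at 0.07 ± 0.35, changed their leading member between libraries and others, such as Hoxb7 over Hoxb6 at 0.18 ± 0.06, did not.

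The most one-sided choice was among chitinase-like proteins, where Ovgp1, which lacks chitinase activity, held 99.6 ± 0.102% and the enzyme Chia1 only 6.53, 7.001 and 6.28 RPKM. Ihh held 98.6 ± 0.639% of the hedgehog ligands. Myl9 held 95.9 ± 1.03% of the myosin regulatory light chains, over the 6 of 7 listed genes that were measured. The levels of Myl12a and Myl12b, close paralogs in this family, are uncertain. Among type II keratins Krt8 held 91.4 ± 1.35%, against Krt7 as the next. Muc1 likewise led the mucins (89.7 ± 1.10%), Cdh1, E-cadherin, the classical cadherins (71.9 ± 2.80%) and Aqp1 the aquaporins (81.4 ± 2.31%). Claudins were shared more widely, Cldn3 holding 47.7 ± 1.90%, yet its log2 ratio to Cldn7 was among the steadiest at 1.86 ± 0.04.

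Cytoskeletal families divided between muscle and cilia. Myh11 held 81.1 ± 3.57% of the class II myosin heavy chains, ahead of the nonmuscle Myh9. Acta2 led the actins over the cytoplasmic Actb by 0.94 ± 0.22 on the log2 scale. Among tubulins, Tuba1a (65.6 ± 3.31%) and Tubb4b (60.9 ± 4.15%), the beta tubulin of axonemes, led. Foxj1 led the forkhead J factors by 3.22 ± 0.30 over Foxj2, whereas Rfx2 led Rfx1 by only 0.46 ± 0.07. Tekt1 led the tektins, 0.97 ± 0.19 above Tekt4. Dnah5 and Dnah6 exchanged the lead between libraries, as did Tagln2 and Cnn1 among the calponins and transgelins, where the level of Tagln, and so the true leader, is not known.

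Signalling families ranged from one-sided to evenly shared. Esr1 led the nuclear steroid receptors with 41.3 ± 1.66 RPKM. Edn1 held 83.8 ± 2.54% of endothelin ligands and Ednra 80.0 ± 1.22% of the receptors. Tgfb3 held 70.4 ± 4.63% of TGF-beta ligands and Notch2 63.8 ± 4.88% of Notch receptors. Wnt11 led 19 Wnt genes with 26.7 ± 2.47 RPKM, and Fzd6 the frizzled receptors with 27.5 ± 1.04 RPKM. Cdc42, the small GTPase gene that carries the loxP sites here, stood at 133 ± 7.92 RPKM. Gata2 held 72.3 ± 4.58% of the GATA factors and Pax8 78.3 ± 2.16% of the PAX factors. Among EGF family ligands Tgfa led, but Areg, the next, had 7.58 and 8.48 RPKM in replicates 1 and 2 and 1.35 RPKM in replicate 3, which gave the widest spread of any ratio (1.12 ± 1.38). The lead was narrow for Erbb2 over Erbb3 (0.36 ± 0.10) and Wnt11 over Wnt16 (0.65 ± 0.30), and it changed between libraries for Vegfb and Vegfa (0.09 ± 0.24) and for Adra2c and Adra2a (0.38 ± 0.52). All 5 muscarinic receptors were below 1 RPKM.

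In a further 6 families, chosen after their values were seen, the lead was likewise kept. Gstm1 led Gstm2 by 0.64 ± 0.03 on the log2 scale, Ifitm3 led Ifitm1 by 1.27 ± 0.08, and S100a11 led S100a1 by 3.22 ± 0.18. Lyz2, the lysozyme of macrophages, led Lyz1, that of Paneth cells, by 5.75 ± 0.55. S100a4, a marker of leukocytes and fibroblasts, was listed at 0 in all libraries, where 51.7% of its exon bases overlap another gene on the same strand, so its level cannot be taken from this table. Dcpp1, a secreted protein with near-identical copies, was 1.02 ± 0.18 above Dcpp2.

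The spread between replicates fell with the level of the gene and then stayed flat. The median coefficient of variation was 45.4% for genes of 0.05 to 1 RPKM, 12.1% from 1 to 10, 8.58% from 10 to 100, 8.55% from 100 to 1000 and 9.71% for the 18 genes above that. Counting error alone gives medians of 31.6%, 3.76%, 1.73%, 0.715% and 0.236% in these classes. The counting error is a lower limit, as an excess of even numbers (64.9% of recovered read numbers up to 20) was seen and reads may have come in pairs. Krt8 was among the 5 steadiest genes of 100 RPKM or more.

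**Figure D3:**
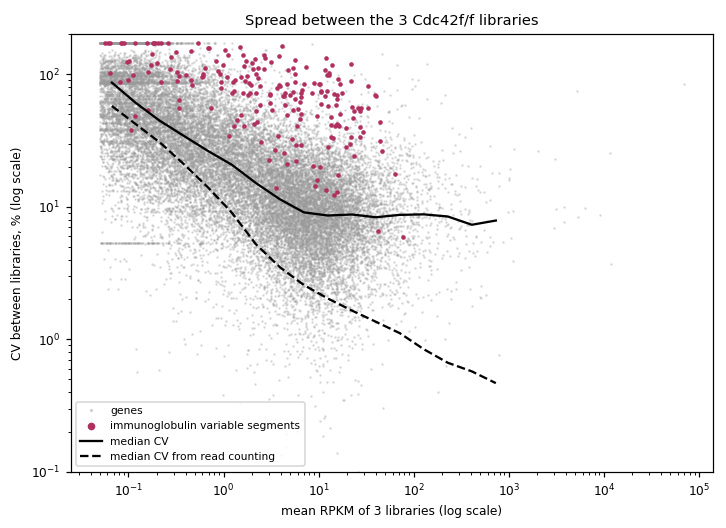
Coefficient of variation over the 3 Cdc42f/f libraries against mean RPKM, both on log axes, with a point for each gene, immunoglobulin variable segments in colour, a solid line for the median by level and a dashed line for counting error alone. The medians run from 45.4% below 1 RPKM to 8.55% between 100 and 1000 RPKM, above the counting error in every class.

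The genes that differed most between replicates were immunoglobulin variable segments, the parts of antibody genes that each B cell clone chooses for itself. Of 89 segments at 5 RPKM or more, 34 had an SD above 1 on the log2 scale, against 20 of 8325 other genes, with median SDs of 0.85 and 0.12. Their summed level was nevertheless alike, at 1375, 1656 and 1490 RPKM. Segments took 11 of the first 15 places in the order of SD. Beyond them, Ctnnd2, a catenin of neurons, was at 45.9 RPKM in replicate 1 against 0.272 and 0.313 RPKM in replicates 2 and 3. Mndal, an interferon-inducible gene with close paralogs, had 16.3, 5.97 and 0.346 RPKM, and Rnf112 had 12.8, 17.5 and 1.06 RPKM. Dynlt1b, a dynein light chain with near-identical copies, had 5.19, 0.196 and 10.1 RPKM. Genes outside the naming rule, chosen after their values were seen, showed the same width, the ribonuclease Rnase1 (4.41, 16.8 and 50.01 RPKM) and Ndufs5 (27.1, 12.7 and 2.58 RPKM), a subunit of respiratory complex I.

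Ciliary, contractile and stromal genes each had a library in which most of them were highest, while other lists were divided. Of 137 ciliary genes expressed, 112 (81.8%) were highest in replicate 2, where 31.4% of all genes were. Their summed levels were 3208, 4195 and 3410 RPKM, and their median deviations from the gene's own mean on the log2 scale were -0.12, 0.22 and -0.08 in replicates 1, 2 and 3. Of 28 muscle genes, 25 (89.3%) were highest in replicate 3, where 32.5% of all genes were, with median deviations of -0.15, -0.17 and 0.30. Of 48 stromal genes, 36 were highest in replicate 3 and 11 in replicate 1, with median deviations of 0.01, -0.17 and 0.18. The 15 epithelial markers were highest in replicates 1, 2 and 3 in 5, 8 and 2 cases, and the 25 expressed channels and receptors of muscle in 6, 7 and 12 cases. With 3 libraries of a single group, no test of these patterns was made, and the segments of the duct were not measured apart.

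**Figure D4:**
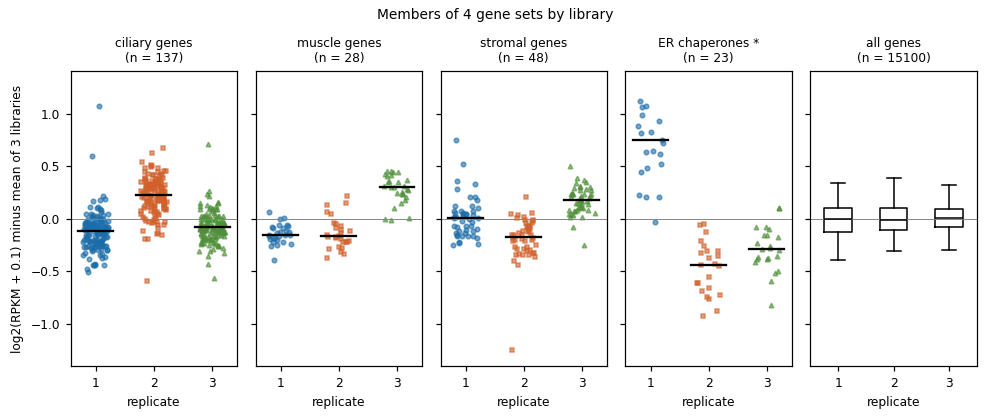
Deviation of each ciliary, muscle, stromal and endoplasmic reticulum chaperone gene from its own mean over the 3 Cdc42f/f libraries, on the log2 scale, by replicate, with a line for the median and, at the right, a box plot of all 15100 genes (box, quartiles; whiskers, percentiles 5 to 95). The star marks a list chosen after its values were seen. The ciliary genes lay highest in replicate 2 (median 0.22) and the muscle genes in replicate 3 (median 0.30).

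Replicate 1 was set off by a different group. Of 23 chaperones and stress genes of the endoplasmic reticulum, a list chosen after their values were seen, 22 were highest in replicate 1, where 36.1% of all genes were. Their summed levels were 3775, 1746 and 1863 RPKM. Hspa5, the main chaperone of this compartment, had 390, 115 and 143 RPKM, and Calr, which folds glycoproteins, had 588, 306 and 316 RPKM. Creld2 (200, 38.5 and 51.2 RPKM) and Sdf2l1 (115, 22.6 and 27.6 RPKM), induced when unfolded proteins build up, differed most. Of 14 heat shock genes of the cytosol and mitochondria, in another list of the same kind, 11 were highest in replicate 1. Hsph1, for one, had 50.5, 16.6 and 16.1 RPKM. The list holds the mitochondrial Hspd1 and Hspe1, both highest in replicate 1. Of the 21 mucosal secreted proteins expressed, 6 were highest in replicate 1, Ovgp1 and Agr2 among them, 10 in replicate 2 and 5 in replicate 3, and Lcn2, Clu and C3 were lowest in replicate 1. The part this difference plays in the levels of secreted proteins was not tested.

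**Figure D5:**
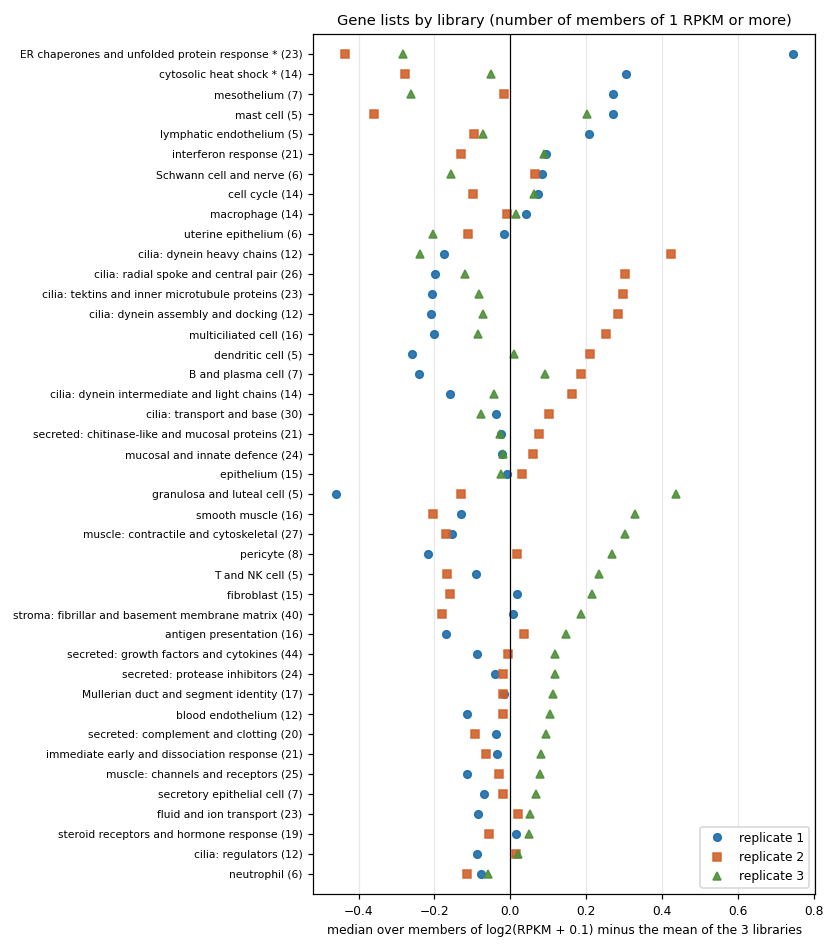
Median deviation of each gene list from its members' own means in replicates 1, 2 and 3, on the log2 scale; a star marks a list chosen after its values were seen. Of the 40 lists without a star, all with at least 5 expressed members, 8 were highest in replicate 1, 12 in replicate 2 and 20 in replicate 3.

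Over 40 lists with at least 5 expressed members, 37 kept the replicate in which the deposited values were highest under median ratio and quantile scaling. The exceptions were the neutrophil markers, the regulators of cilia and the genes of fluid and ion transport. The deposited libraries were already close in scale, with median deviations over all expressed genes of -0.0016, -0.013 and 0.0098 in replicates 1, 2 and 3. Most lists could therefore keep their replicate in any case, and some lists share genes. The widest range of the median deviation between libraries was that of the granulosa and luteal markers, 0.90 on the log2 scale, over 5 expressed genes. The chaperone list, chosen for its values, is not among the 40.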

How the data were processed

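Whole oviducts of Cdc42f/f mice on day 2 of pregnancy were sequenced by the authors as 3 libraries on a BGISEQ-500 instrument. The deposited RPKM values, reads per kilobase of gene and per M (mega) reads of the library, were made by the authors before deposit. The submitters' processing notes name HISAT2, edgeR and the mm10 and GRCm38 builds, while the study's methods name Tophat2, and which aligner made the table was not settled. The counting rule and strand setting are not given in the sources used here. RPKM is not a count, so no count test was run. Of the columns, 3 belonged to the control libraries and 0 to samples of another series, and 26 symbols had been turned into dates or numbers. Reads were recovered from RPKM steps for 32775 rows with a length in the annotation, 98.7% of them whole within 0.01 read, and were used for depth, read shares and counting error only. Gene lengths and coordinates were taken from GENCODE M21 (GRCm38), and promoter windows from RefSeq.

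Levels were compared as RPKM, with a minimum mean of 1, and spread and ratios as log2(RPKM + 0.1), a scale that understates differences of low genes. The values are given as mean ± SD over 3 replicates. With 1 group of 3 libraries a paired exact two-sided permutation test cannot go below p = 0.25, so no test was run. Named genes were the 25 of highest mean, up to 6 per function list and 4 per cell list with those listed at 0, the leading and next member of each family, and the 15 most variable (mean of at least 5 RPKM) and 5 steadiest (at least 100 RPKM). The members and lists were chosen with earlier results of these data known, and 8 lists were added after the values were seen. Alternatives were another pseudocount, filter or scaling, and leaving out each replicate. Of the expressed symbols, 148 share at least 50% of their exon bases with another gene and are uncertain, as are paralogs with near-identical sequence. The scripts used Python 3.11.15, pandas 2.3.3, numpy 2.4.6 and matplotlib 3.10.9, and were tested on simulated data. A few results were left out and are not reported here.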

Additional observations from a re-analysis of the deposited data

How the results depend on the processing

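No paired analysis was possible because the libraries of a single group were described and no groups were compared. Of 36 alternative values, 10 moved, and 26 stayed within the spread or, for the 2 counts, within 1.5 times the main count. For the share, the spread was the SD over the 3 libraries (10.2%). For the median SD and the largest list range it was the SD of the values with a replicate left out (0.016 and 0.14). Those values were thus judged against their own SD, and the counts of moves do not measure robustness. The number of expressed symbols, 15102, ranged from 12740 to 18615 over all alternatives, and from 14976 to 15114 when a replicate was left out. The share of the 10 most abundant symbols, 33.0%, fell to 6.32% over protein-coding nuclear genes and to 11.04% over recovered reads, both chosen after seeing the data; the first leaves out noncoding and mitochondrial genes, the second does not divide by length. Leaving out a replicate gave 27.2% to 36.8%. The families led by the same gene in every library numbered 56, and 58 to 60 with a replicate left out, where fewer libraries have to match. The median SD of log2 values, 0.15, was 0.13 with a pseudocount of 1, 0.12 with a minimum of 10 RPKM, 0.24 with no minimum, and 0.11 to 0.14 without a replicate. The largest range of a list's median deviation, 0.90 in granulosa and luteal markers, was 0.68 after quantile scaling, then in dynein heavy chains, 1.08 with no minimum, then in red blood cell markers, and 0.62 to 0.90 without a replicate, in mast cell markers (0.80) without replicate 3. The cause of these moves was not tested. An SD or a range over fewer libraries tends to be smaller in any case, so the values without a replicate are not on the same footing. Depth limits genes of a few reads, and the 3 libraries limit every SD.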
